A study of Homo sapiens with 5 samples.

Results

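ACTL6A and BRG1 were compared gene by gene in SNU638, an established human gastric cancer cell line. For each of 19689 genes with a protein-coding transcript in GENCODE release 44, peaks of the anti-ACTL6A and of the anti-BRG1 library were taken when they lay within 1 kb of an annotated transcription start site (TSS), after peaks that overlapped those of the second IgG library (named IgG 2 here) had been left out. In all, 12828 genes had such a peak in at least one list and form the subject of the comparison. The best peak of a gene was ranked within its own list by the caller's −log10 q, and a rank is given below as a percentage of the list, so that 1% is near the top and 99% near the bottom. High means the highest 10% of a list's peaks and low means its last 50%.

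The peaks come from CUT&Tag, which tethers the Tn5 transposase to an antibody bound in permeabilised cells, so that DNA near the antibody's target is cut and tagged for sequencing. The cells of both libraries were SNU638 cells for which the labels name no treatment or genetic change, incubated with an Abcam anti-ACTL6A or a Proteintech anti-BRG1 antibody. With 1 library per antibody there was no replicate error to measure a difference by, and antibody, library and depth cannot be told apart. IgG libraries were also made, one of which (IgG 1) gave 11 peaks and the other (IgG 2) 1746, which lay at a TSS of 30 genes (0.152%).

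ACTL6A, also called BAF53A, is an actin-related protein that is a shared subunit of the SWI/SNF (BAF) chromatin remodelling complexes and of the INO80 and TIP60 complexes. BRG1, encoded by SMARCA4, is an ATPase that drives nucleosome sliding and eviction in SWI/SNF and is not a subunit of INO80 or TIP60. Promoters at which only one of the proteins gives a peak are therefore of interest, since the proteins share SWI/SNF and not the other complexes. Which complex was present at a promoter was not measured.

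The ACTL6A list held 23502 peaks after 415 that overlapped IgG 2 were left out, and the BRG1 list 48455 after 338 were left out. The highest 10% of ACTL6A peaks began at a −log10 q of 10.47 and the highest 10% of BRG1 peaks at 23.99. Equal ranks in the lists therefore stand for unequal evidence, and no fold or q-value was compared between lists. Many peaks shared a q-value with another peak of their list (93.6% for ACTL6A and 84.0% for BRG1) and were given the mean rank of the tie. No reads were used, but whole numbers of fragments at the summit, implied by the fold and p-value given to each peak, were obtained for 7568 of 7568 ACTL6A genes and 12501 of 12502 BRG1 genes. The fewest fragments at a TSS peak was 3 in both lists, and the median was 10 for ACTL6A and 22 for BRG1.

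ACTL6A peaks marked the start of fewer genes than BRG1 peaks, and nearly all of them lay at genes that BRG1 also marked. An ACTL6A TSS peak was found at 7568 genes (38.4% of all genes) and a BRG1 TSS peak at 12502 (63.5%). Both were present at 7242 genes (36.8%), ACTL6A alone at 326 (1.66%), BRG1 alone at 5260 (26.7%) and neither at 6861. Of the ACTL6A genes, 95.7% had a BRG1 peak (Wilson 95% interval 95.2% to 96.1%), whereas 57.9% of the BRG1 genes had an ACTL6A peak (57.1% to 58.8%). Here and below, intervals treat genes as independent and cover counting error only. Neighbouring genes can share a peak, which was so for 27.9% of ACTL6A genes and 22.7% of BRG1 genes. When each list was cut to its highest 20000 peaks, ACTL6A alone was found at 726 genes and BRG1 alone at 3562.

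Presence in the other list followed rank. Among the genes with a high ACTL6A peak, 2087 of 2088 had a BRG1 peak (99.95%, 99.7% to 99.99%). At ranks of 80% to 90% and 90% to 100% of the ACTL6A list 62.3% and 72.2% had one. Among the genes with a high BRG1 peak, 3143 of 3679 had an ACTL6A peak (85.4%, 84.3% to 86.5%), and the share was 67.2% at ranks of 10% to 20%, 51.7% at 20% to 30% and 9.50% at 90% to 100%. The plot of presence by rank shows the difference in shape: the ACTL6A curve stays at 94.1% or more down to a rank of 50%, and the BRG1 curve falls from the first bin to 15.04% at ranks of 70% to 80%, with 19.4% at 80% to 90%.

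**Figure D1:**
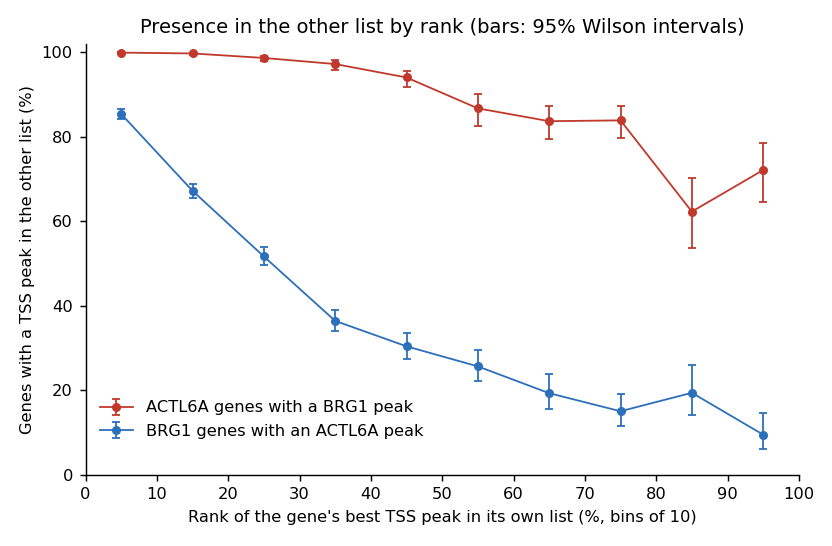
Share of genes with a TSS peak in the other list (y axis, %) by the rank of the gene's best TSS peak in its own list (x axis, bins of 10% of the peaks, 0 is the highest). Red points are ACTL6A genes with a BRG1 peak and blue points are BRG1 genes with an ACTL6A peak, with 95% Wilson intervals; the share falls from 99.95% to 72.2% for ACTL6A and from 85.4% to 9.50% for BRG1.

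The number of BRG1 fragments moved with the same share. Fragment numbers derive from the same peak statistics as the rank, so this restates the rank result and is no separate readout. Of the 1312 genes with up to 8 BRG1 fragments at the summit, 22.0% had an ACTL6A peak (19.8% to 24.3%). The share was 57.2% at 17 to 24 fragments and 92.9% (90.9% to 94.6%) at the 736 genes with 65 or more. At ACTL6A genes the median was 10 fragments where BRG1 was present and 4 where it was absent. The study's methods list more sequenced reads for BRG1 than for ACTL6A, and the part of depth in the difference between the lists was not tested.

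At the 7242 genes in both lists the peaks lay close together and the ranks went partly together. The best peaks of the lists overlapped at 86.9% of these genes (86.1% to 87.6%), and the median distance between their summits was 86 bp. Over the 7242 genes Spearman's rho of the ranks was 0.57 and Pearson's r 0.50. This is a description across genes, which share one library per list and, for neighbours, the same peak. A high peak in both lists was found at 1551 genes, which are 74.3% of the ACTL6A-high and 42.2% of the BRG1-high genes.

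The genes at the top of both rankings included a family of near-identical copies. The gene with the best rank in both lists was FAM86B1 on chromosome 8, which ranked 1 in ACTL6A and 1 in BRG1, and FAM86B2 on the same chromosome ranked 21 and 6. FAM86 genes have near-identical copies, so these peaks are uncertain. ENSG00000270249 on chromosome 7, a gene without a symbol, ranked 3 and 4. FARP2 ranked 12 (86 fragments) and 3 (332 fragments). KLHL26, a kelch-like protein, ranked 22 (72 fragments) and 21 (186 fragments), with an ACTL6A peak from −832 to −122 bp and a BRG1 peak from −862 to −59 bp of its start, negative being upstream.

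Only 1 gene had a high ACTL6A peak and no BRG1 TSS peak (0.00508% of all genes). It was CENPW (ENSG00000203760), a histone-fold protein of the inner kinetochore, on chromosome 6. Its ACTL6A peak, chr6:126339952-126340205, covered the start, from −163 to 90 bp. The peak ranked 1557, in the highest 6.62% of the list, with a −log10 q of 13.3 and 14 fragments at the summit where 0.449 were expected. The nearest BRG1 peak lay 159278 bp from the start. NRF2 had no TSS peak at CENPW. CENPW stayed in this class when all peaks were kept and when peaks of either IgG list were left out. The class was empty (0 genes) with a −log10 q of at least 5, with the highest 5% taken as high, and with ranks among TSS genes.

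Also 1 gene was high in ACTL6A and low in BRG1 (0.00508%), FOSB, a member of the AP-1 transcription factor family. Its ACTL6A peak, chr19:45469936-45470721, ranked 2170 (9.23%) with 23 fragments, and its BRG1 peak, chr19:45467416-45467556, ranked 43868 (90.5%) with 12. These peaks did not lie at one place. The ACTL6A peak covered 1940 to 2725 bp downstream of the MANE Select start, over another annotated start of FOSB, and the BRG1 peak lay at −580 to −440 bp of the first. With 1 start per gene, or with the highest 5% taken as high, no gene was left in this class, and with rank by fold enrichment the 1 gene was COPB1, a coatomer subunit. Both classes depend on the length of the lists: with the highest 20000 peaks of each, 5 genes were high in ACTL6A and absent in BRG1, CENPW among them, and 92 were high in ACTL6A and low in BRG1.

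Promoter sequences of a few named genes of each class, chosen among those whose RefSeq and GENCODE starts are the same base, are shown so that their base composition can be compared. They were read from RefSeq on GRCh38.p14. Each is the 150 bases just upstream of the start on the gene's strand, 5′ to 3′, with every CpG in capitals. CENPW (chr6:126339965-126340114, plus strand) and C1D (chr2:68063005-68063154, minus strand), a cofactor of the nuclear RNA exosome, had an ACTL6A peak and no BRG1 peak.
CENPW: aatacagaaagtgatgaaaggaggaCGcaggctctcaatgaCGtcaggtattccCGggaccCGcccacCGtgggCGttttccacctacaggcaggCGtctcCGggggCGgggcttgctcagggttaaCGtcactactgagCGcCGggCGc
C1D: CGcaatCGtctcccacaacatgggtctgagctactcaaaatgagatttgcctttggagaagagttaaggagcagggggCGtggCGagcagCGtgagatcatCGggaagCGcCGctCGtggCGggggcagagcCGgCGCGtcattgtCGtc

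CENPW held 13 CpG and C1D 14, with a GC content of 62.0% and 60.0%. The CENPW window held a match to the cAMP response element (CRE, TGACGTCA) and to the GC box (GGGCGGG), on either strand. C1D held no match to any of the 10 motifs searched.

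The next set had a high BRG1 peak and no ACTL6A TSS peak: DCXR (chr17:82037698-82037847, minus strand), CD320 (chr19:8308359-8308508, minus strand) and SMDT1 (chr22:42079550-42079699, plus strand).
DCXR: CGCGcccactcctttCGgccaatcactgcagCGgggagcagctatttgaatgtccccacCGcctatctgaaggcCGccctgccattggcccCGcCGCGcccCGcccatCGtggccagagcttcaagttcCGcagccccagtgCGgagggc
CD320: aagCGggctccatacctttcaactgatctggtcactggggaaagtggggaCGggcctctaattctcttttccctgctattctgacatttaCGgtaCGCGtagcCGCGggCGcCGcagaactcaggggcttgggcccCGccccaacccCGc
SMDT1: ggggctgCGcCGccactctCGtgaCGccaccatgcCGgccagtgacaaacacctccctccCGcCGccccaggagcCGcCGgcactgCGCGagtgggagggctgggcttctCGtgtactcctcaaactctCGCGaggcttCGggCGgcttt

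Their GC content was 68.0%, 60.7% and 70%, with 13, 11 and 16 CpG. The following pair, GXYLT1 (chr12:42144875-42145024, minus strand) and PIK3CB (chr3:138834929-138835078, minus strand), had a high BRG1 peak and a low ACTL6A peak.
GXYLT1: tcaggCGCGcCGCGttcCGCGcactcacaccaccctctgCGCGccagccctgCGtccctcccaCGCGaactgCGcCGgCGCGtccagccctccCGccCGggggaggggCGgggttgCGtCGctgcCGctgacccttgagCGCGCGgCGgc
PIK3CB: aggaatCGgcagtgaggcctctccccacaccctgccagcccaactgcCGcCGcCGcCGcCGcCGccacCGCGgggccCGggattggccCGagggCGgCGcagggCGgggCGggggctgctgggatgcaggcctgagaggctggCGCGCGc

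GXYLT1 had a GC content of 78.7% with 25 CpG and PIK3CB 79.3% with 18. The ACTL6A peak covered 30 of the 150 bases of GXYLT1 and 0 of those of PIK3CB, so these windows are not the DNA under that peak. The last pair, KLHL26 (chr19:18636878-18637027, plus strand) and FARP2 (chr2:241356135-241356284, plus strand), ranked near the top of both lists.
KLHL26: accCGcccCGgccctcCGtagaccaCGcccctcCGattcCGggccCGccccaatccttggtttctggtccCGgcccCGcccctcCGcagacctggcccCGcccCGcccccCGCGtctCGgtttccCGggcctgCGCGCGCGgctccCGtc
FARP2: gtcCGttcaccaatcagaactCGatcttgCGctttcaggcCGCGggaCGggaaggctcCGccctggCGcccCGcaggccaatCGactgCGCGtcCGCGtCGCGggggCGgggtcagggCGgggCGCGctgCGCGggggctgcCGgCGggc

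KLHL26 had a GC content of 78.7% with 21 CpG and FARP2 76.0% with 24, so single genes high in both lists could be as GC-rich as those without ACTL6A. The ACTL6A peak covered 29 of the 150 bases of KLHL26 and 40 of those of FARP2. DCXR, PIK3CB, KLHL26 and FARP2 held the CCAAT box (CCAAT).

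High BRG1 peaks without an ACTL6A TSS peak were far more numerous, at 536 genes (2.72% of all genes). Their median BRG1 rank was 6.47% with 41 fragments at the summit. The best BRG1 peak lay over a start at 82.5% of them (79.0% to 85.4%). An ACTL6A peak was found within 3 kb of a start at 14.2% (11.5% to 17.4%) and within 10 kb at 33.2% (29.4% to 37.3%), so 358 of the 536 genes had none within 10 kb. With the highest 20000 peaks of each list the class held 143 genes, and with ranks taken among TSS genes alone 85.

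The best-ranked genes of this class had varied roles. DCXR, which reduces dicarbonyls and L-xylulose, had the BRG1 peak chr17:82037374-82037905, which ranked 123 of the list with 120 fragments and covered the start, from −208 to 323 bp. The nearest ACTL6A peak to a start of DCXR lay 13177 bp away. CD320, the cell-surface receptor for transcobalamin, ranked 234 in BRG1 with 93 fragments, and its nearest ACTL6A peak was 3148 bp away. SMDT1, the EMRE subunit of the mitochondrial calcium uniporter, ranked 288 with 79 fragments, and the BRG1 peak chr22:42079504-42080076 lay over its start.

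Among the 10 with the best rank were also ING5, PABPC1, RBFA, TXNL4A, MAP4 and ENSG00000284934. ING5, a reader of methylated histone H3, ranked 328 in BRG1 with 100 fragments, and its nearest ACTL6A peak was 21494 bp away. PABPC1, the cytoplasmic poly(A)-binding protein, ranked 376 with 82 fragments and had none within 49393 bp. RBFA, a mitochondrial ribosome assembly factor, and TXNL4A, a component of the U5 snRNP, shared 1 BRG1 peak that ranked 398. For TXNL4A this peak covered another annotated start, and its summit lay at −45558 bp of the MANE Select start. The best BRG1 peak of MAP4 likewise covered another annotated start, with the summit at −72650 bp of the MANE Select start. For MAP4 and ENSG00000284934 the absence rests on the 1 kb limit: an ACTL6A peak lay 1025 bp from a start of MAP4 and 1275 bp from one of ENSG00000284934, whose BRG1 peak also served a neighbouring gene.

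A high BRG1 and a low ACTL6A peak were found at 157 genes (0.797%). The ACTL6A peaks there had a median of 5 fragments and a median width of 186 bp, and the BRG1 peaks 39 fragments and 669 bp. Over all genes with a TSS peak the medians were 10 fragments and 300 bp for ACTL6A and 22 and 511 bp for BRG1. Since ranks chose these genes, few ACTL6A and many BRG1 fragments follow from the rule and are no separate result. RGS12, a regulator of G-protein signalling, ranked 4.31% in BRG1 and 99.04% in ACTL6A, but its ACTL6A peak lay near a later start, with the summit 75988 bp downstream of the first. GXYLT1, which adds xylose to Notch EGF repeats, ranked 5.49% and 97.3%. PIK3CB, a catalytic subunit of phosphoinositide 3-kinase, ranked 8.01% and 99.04%, with 33 and 3 fragments. BRF1, a subunit of the RNA polymerase III factor TFIIIB, and PACS2, a membrane-sorting protein, shared a BRG1 peak at 0.462% and an ACTL6A peak at 93.6%. For PACS2 both peaks lay near another annotated start. Their summits were at −13577 bp (BRG1) and −13305 bp (ACTL6A) of its MANE Select start.

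The rank limits cut through genes that differ little. The ACTL6A limit of 10% fell between CHTOP at 9.999% and ARMC5 at 10.01%, and the limit of 50% between NDRG4 at 49.99% and CAPN7 at 50.08%. For BRG1 the 10% limit fell between MVD at 9.99% and LGR4 at 10.01%, and the 50% limit between AGAP5 at 50.00% and GNG13 at 50.6%. The 1 kb limit left E2F1 in the ACTL6A genes at 1000 bp and MAB21L2 out at 1001 bp, and ALKAL2 in the BRG1 genes at 1000 bp and C17orf99 out at 1001 bp.

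The 326 genes with an ACTL6A peak alone had weak peaks that often lay beside the start. Of these genes 76.4% ranked in the last 50% of the ACTL6A list (71.5% to 80.7%), against 14.6% of the genes in both lists. The best ACTL6A peak lay over a start at 20.2% of them (16.2% to 24.9%), against 53.6% of the genes in both lists (52.4% to 54.7%). BRG1 had a peak within 10 kb of a start at 42.9% of them, so 186 had none within that distance. No gene of the 326 had more than 1 ACTL6A TSS peak, against 12.0% of genes in both lists and 4.42% of all genes.

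The best-ranked of the 326 after CENPW were named after their values had been seen. FCMR, the Fc receptor for IgM, had an ACTL6A peak at 12.2% of the list with 13 fragments, 799 bp from a start. RRAGB, a Rag GTPase of the mTORC1 pathway on chromosome X, ranked 16.4% with 9 fragments, and its peak covered the start, with no BRG1 peak within 230141 bp. C1D ranked 19.7% with 7 fragments and a summit 35 bp downstream of its start, and its nearest BRG1 peak was 38580 bp away. LGR6, a receptor for R-spondins, ranked 19.9% with 16 fragments, 786 bp from a start. COX7C, a subunit of cytochrome c oxidase, ranked 20.1% with 7 fragments, 14 bp from its start, and RPS20, a protein of the small ribosomal subunit, ranked 22.9% with 9 fragments.

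At some genes in both lists ACTL6A ranked well ahead of BRG1 at one place, also named after their values had been seen. PARP11, a mono-ADP-ribosyltransferase, had peaks over its start that ranked 15.9% in ACTL6A with 8 fragments and 79.9% in BRG1 with 4. MINDY3, a deubiquitinase, ranked 16.4% with 9 fragments and 79.9% with 4, and MAGOHB, an exon junction complex protein, 18.5% with 8 and 79.9% with 4. All of these rest on few fragments.

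Base composition, which the rule did not use, differed between the classes. GC content was taken in a window from 250 bp upstream to 50 bp downstream of 1 start per gene. Its median was 65.0% at genes in both lists, 69.3% at genes with BRG1 alone, 60.0% with ACTL6A alone and 55.0% with neither. Among BRG1-high genes it was 64.3% where ACTL6A was high too, 71.3% where it was low and 73.3% where it was absent. The quartiles of high-in-both genes, 60.3% to 69.0%, and of high-BRG1 genes without ACTL6A, 68.0% to 77.0%, barely overlapped. In 200 bp around the BRG1 summits the medians were 64% and 73.5%, so the difference was also present at the summits.

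The ratio of observed to expected CpG had medians, among BRG1-high genes, of 0.85 where ACTL6A was high too, 0.89 where it was low and 0.90 where it was absent, the same order as GC content. Over all ranks it was 0.85 at genes in both lists and 0.86 at those with BRG1 alone, and 0.52 with ACTL6A alone against 0.38 with neither. A ratio of at least 0.6 was found at 88.9% of genes in both lists (88.2% to 89.6%), 82.1% with BRG1 alone (81.1% to 83.1%) and 46.0% with ACTL6A alone (40.7% to 51.4%), against 67.7% of all genes.

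Bands of BRG1 rank and GC content were chosen after these values had been seen. Among BRG1-high genes, an ACTL6A peak was present at 93.2% of 620 genes with 50% to 60% GC, 93.2% of 1702 with 60% to 70%, 72.6% of 1170 with 70% to 80% (69.9% to 75.04%) and 64.5% of 107 above 80% (55.1% to 72.9%). The median number of BRG1 fragments in these 4 bands was 42, 45, 46 and 49. At BRG1 ranks of 10% to 20% the share was 79.6% at 50% to 60% GC and 49.3% at 70% to 80%. At the other end of the GC range, 76.2% of the 80 BRG1-high genes with up to 50% GC had an ACTL6A peak (65.9% to 84.2%). In the last 50% of the BRG1 list the share was 22.3% at 60% to 70% GC (18.9% to 26.2%), 12.5% at 70% to 80% (9.71% to 16.03%) and 18.6% above 80% (11.8% to 28.1%). GC content thus moved with the presence of ACTL6A at like BRG1 rank, and its part in the result, through the protein or through the library, was not tested.

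The share of ACTL6A genes with BRG1 had another course. Of the ACTL6A genes with 70% to 80% GC, 97.4% had a BRG1 peak (96.6% to 98.1%), 94.6% of those above 80% had one (90.3% to 97.0%), and of those with up to 50% GC 81.3% had one (77.0% to 84.9%).

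Short motifs were searched on both strands of the same 300 bp window, and a match is no evidence of binding. The CCAAT box was in 54.4% of genes high in both lists (51.9% to 56.9%), 30.0% of high-BRG1 genes without ACTL6A (26.3% to 34.0%) and 36.1% of all genes. The GC box was in 61.8% and 75.6% of these classes and in 47.4% of all genes. The ETS motif (CCGGAAG) was in 22.2% of genes in both lists (21.2% to 23.1%), 16.1% with BRG1 alone, 6.75% with ACTL6A alone and 14.0% of all genes. Between the high classes its intervals overlapped: 18.6% of genes high in both lists (16.8% to 20.6%) and 16.8% of high-BRG1 genes without ACTL6A (13.9% to 20.2%). So did those of the antioxidant response element core (TGACNNNGC), at 15.6% (13.9% to 17.5%) and 17.7% (14.7% to 21.2%), with 14.0% of all genes. The AP-1 motif (TGANTCA) was in 3.69% of genes in both lists, 5.52% with ACTL6A alone and 5.44% of all, and the TATA box (TATAAA) in 4.24%, 8.59% and 9.66%. GC content differs between these classes, as does BRG1 rank where BRG1 is present, and motif shares were matched for neither.

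Neighbouring genes that start in opposite directions were also counted. An opposite start within 1 kb was annotated at 25.5% of genes high in both lists (23.4% to 27.7%), 11.6% of high-BRG1 genes without ACTL6A (9.13% to 14.6%), 3.68% with ACTL6A alone and 9.43% of all genes. The NRF2 library, a readout the rule did not use, followed the same order. An NRF2 TSS peak was present at 84.9% of genes high in both lists (83.0% to 86.6%). Among high-BRG1 genes it was at 61.1% with a low ACTL6A peak (53.3% to 68.4%) and 49.1% without ACTL6A (44.9% to 53.3%). The share was 60.0% of all genes in both lists, 21.0% with BRG1 alone, 3.99% with ACTL6A alone and 28.1% of all genes. The median BRG1 rank was 3.22% at genes high in both lists and 6.47% at high-BRG1 genes without ACTL6A. The shares of opposite starts and of NRF2 peaks were not matched for BRG1 rank.

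Gene lists were drawn from general knowledge and are described by counts, with no test. They are read beside all genes, of which 63.5% had a BRG1 TSS peak, 38.4% an ACTL6A TSS peak and 1.66% ACTL6A alone. Among 29 SWI/SNF subunit genes, 28 had a BRG1 (96.6%) and 16 an ACTL6A TSS peak (55.2%, against 38.4% of all genes). ACTL6A itself carried a peak of its own protein near the top of the list, at 0.891% with 32 fragments, and ranked 6.73% in BRG1 with 38. SMARCA4, which encodes BRG1, ranked 25.8% in ACTL6A with 8 fragments and 25.1% in BRG1 with 19. Its nearest ACTL6A peak lay 813 bp from a start, while a BRG1 peak lay over a start. SMARCD2, a subunit of the core, had the best BRG1 rank of the list, 1.300%, and ranked 6.47% in ACTL6A. BCL7C was high in BRG1 and absent in ACTL6A, at 7.19% with 47 fragments, and SMARCA2, the other ATPase, was high in BRG1 at 4.71% and low in ACTL6A at 56.2% with 4 fragments. ACTL6B, the neuronal paralogue, had neither.

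Among 29 subunit genes of INO80 and TIP60, 28 had a BRG1 peak (96.6%, against 63.5% of all genes) and 19 an ACTL6A peak (65.5%, against 38.4%). MBTD1, a TIP60 subunit, had the best ACTL6A rank at 0.557% with 39 fragments, and ranked 8.74% in BRG1 with 37, in each list by a peak that also served another gene. KAT5, the TIP60 acetyltransferase, had the best BRG1 rank at 1.62% with 75 fragments, and ranked 12.6% in ACTL6A with 16. EP400, an ATPase, and MORF4L1 were high in BRG1 and absent in ACTL6A, at 8.81% and 9.16%. INO80, the ATPase of its complex, ranked 3.08% in BRG1 and 62.7% in ACTL6A with 6 fragments.

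Of 28 genes of glutathione metabolism and NRF2 targets, 23 had a BRG1 peak (82.1%, against 63.5% of all genes) and 14 an ACTL6A peak (50%, against 38.4%). NQO1, a quinone reductase, had the best ACTL6A rank, 1.15% with 30 fragments, and ranked 4.60% in BRG1 with 43. GCLC, which catalyses the first step of glutathione synthesis, ranked 34.3% in ACTL6A with 8 fragments and 1.73% in BRG1 with 55. As for every gene, each rank is that of the list's best peak over all its starts. GSR, glutathione reductase, had the best BRG1 rank of the list, 1.37% with 58 fragments, and no ACTL6A peak within 16342 bp of a start. SRXN1, sulfiredoxin, at 3.62%, and GSTP1, a glutathione transferase, at 7.16%, were also high in BRG1 and absent in ACTL6A. TALDO1, of the pentose phosphate pathway, ranked 4.06% in BRG1 and 74.2% in ACTL6A. Promoter GC content was 76.0% for GSR, 80% for SRXN1, 74.0% for GSTP1 and 62.7% for NQO1.

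Of 26 immediate early and AP-1 genes, 25 had a BRG1 peak (96.2%, against 63.5% of all genes) and 13 an ACTL6A peak (50%, against 38.4%), with a median BRG1 rank of 9.45% against 18.8% over all genes. ATF3, a stress-induced factor, had the best BRG1 rank at 0.491% with 100 fragments, and ranked 3.79% in ACTL6A with 23. JUN had the best ACTL6A rank at 3.26% with 25 fragments, and ranked 6.26% in BRG1. FOSL1 at 1.10%, EGR3 at 1.99%, JUND at 5.96% and JUNB at 9.45% were high in BRG1 and absent in ACTL6A. For EGR3 the absence rests on the 1 kb limit, with an ACTL6A peak 1234 bp and the BRG1 peak 876 bp from a start, and the nearest ACTL6A peak to a start of FOSL1 lay 2438 bp away. NR4A1, KLF10 and FOS were high in BRG1 and low in ACTL6A, at 80.1%, 66.0% and 50.7% of the ACTL6A list. FOSB was the 1 member high in ACTL6A and low in BRG1. GC content was 70.3% for FOSL1, 57.3% for EGR3, 77.0% for JUND and 71.0% for JUNB.

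Of 24 YAP and TEAD target genes 20 had a BRG1 peak (83.3%, against 63.5% of all genes) and 10 an ACTL6A peak, a share (41.7%) near the 38.4% of all genes. GADD45A had the best BRG1 rank at 1.502% and AXL, a receptor tyrosine kinase, the best ACTL6A rank at 8.36% with 25 fragments. WWC1 was high in BRG1, at 7.55%, and absent in ACTL6A, and FJX1 ranked 8.21% in BRG1 and 75.6% in ACTL6A. CCN2 ranked 34.5% in ACTL6A and 14.9% in BRG1, and CCN1 had a BRG1 peak alone. Both genes are classical YAP targets.

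Of 24 gut lineage transcription factor genes 14 had a BRG1 peak, a share (58.3%) near the 63.5% of all genes, and 5 an ACTL6A peak (20.8%, against 38.4%). FOXA3 had the best rank in both lists, 3.49% in ACTL6A and 1.98% in BRG1, in each list by a peak that also served another gene. KLF5 was high in BRG1 at 4.53% and absent in ACTL6A. GATA6 and GATA4 had BRG1 alone, at 14.4% and 16.5%, while SOX9 and ELF3 had both. CDX2 and HNF4A had neither.

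Epithelial markers carried both peaks at 7 of 10 genes (70%, against 36.8% of all genes), among them KRT8, at 16.4% in ACTL6A and 1.80% in BRG1, and EPCAM at 14.1% and 4.42%. ESRP1, a splicing regulator, had the best ACTL6A rank of these markers, 10.7%. KRT18 ranked 9.17% in BRG1 and 63.2% in ACTL6A. CDH1 and GRHL2 had BRG1 alone, at 30.3% and 95.6% of the list with 14 and 3 fragments, and CLDN4 had neither. Blood cell markers had an ACTL6A TSS peak at 0 of 10 genes (0%, against 38.4% of all genes) and a BRG1 peak at 2 (20%, against 63.5%). These 2 were SPI1 and CD14, which ranked 63.5% and 76.4% in BRG1 with 11 and 6 fragments. Mesenchymal markers had both at 3 of 10 (30%, against 36.8% of all genes), COL1A1, VIM and ZEB1. COL1A1 ranked 17.6% in ACTL6A and 9.02% in BRG1.

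In housekeeping groups the share of genes with a peak was above that of all genes in both lists (38.4% for ACTL6A and 63.5% for BRG1). Cytosolic ribosomal protein genes had an ACTL6A peak at 56 of 77 (72.7%) and a BRG1 peak at 70 of 77 (90.9%). RPS3A had the best ACTL6A rank, 0.536% with 35 fragments, and RPS29 the best BRG1 rank, 0.584% with 80, while RPL18 was high in BRG1 and absent in ACTL6A. RPS20 and RPL35A had ACTL6A alone. Mitochondrial ribosomal protein genes had 51 and 74 of 78 (65.4% and 94.9%), respiratory chain genes 54 and 75 of 83 (65.1% and 90.4%) and proteasome genes 31 and 46 of 48 (64.6% and 95.8%). Of the respiratory chain genes NDUFA11, a complex I subunit, led both rankings at 0.208% and 0.153%, in each list by a peak that also served another gene, and UQCRC1, NDUFB2 and COX5A were high in BRG1 and absent in ACTL6A. Of the proteasome genes PSMA1 ranked 0.977% in ACTL6A and PSMC4 0.532% in BRG1, and PSMC5, PSMD4 and PSMD12 were high in BRG1 and absent in ACTL6A, PSMC5 by a peak that also served another gene. Among mitochondrial ribosomal protein genes MRPL45 had the best ACTL6A rank at 1.44% and MRPL38 the best BRG1 rank at 0.361%, and MRPL58, MRPL41 and MRPL40 were high in BRG1 and absent in ACTL6A, MRPL40 by a shared peak.

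Histone genes were widely covered by BRG1 and less by ACTL6A. Of 69 replication-dependent histone genes 56 had a BRG1 peak (81.2%, against 63.5% of all genes) and 22 an ACTL6A peak (31.9%, against 38.4%), so 39.3% of those with BRG1 had ACTL6A, against 57.9% over all genes. Their median promoter GC content was 44%, below the 63.7% of all genes, and their median BRG1 summit had 17 fragments against 22. H4C1 had the best ACTL6A rank, 11.5% with 14 fragments. H2AC11 and H2BC11 shared the best BRG1 peak, at 4.94%, and H2AC6 and H2BC4 shared one that was high in BRG1, at 9.82%, with none in ACTL6A. Histone genes are near-identical copies in clusters, so their peaks are uncertain.

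Zinc finger genes of chromosome 19 were among the groups in which ACTL6A was often found where BRG1 was. Of 246 genes 178 had a BRG1 peak (72.4%, against 63.5% of all genes) and 139 an ACTL6A peak (56.5%, against 38.4%), and 75.3% of those with BRG1 had ACTL6A, against 57.9% over all genes. ZNF558 had the best ACTL6A rank, 0.553% with 38 fragments at a peak that also served another gene, and ZNF8 the best BRG1 rank, 0.667% with 85. ZNF233 and ZNF324B were high in BRG1 and absent in ACTL6A, and ZNF426, ZNF471, ZNF568, ZNF525 and ZNF90 had ACTL6A alone. HOX genes had a BRG1 peak at 18 of 39 (46.2%, against 63.5% of all genes) and an ACTL6A peak at 4 (10.3%, against 38.4%). HOXB9 had the best BRG1 rank at 5.61%, and HOXC4 was high in BRG1 and absent in ACTL6A, with an ACTL6A peak 1439 bp from a start. Olfactory receptor genes, which are silent in most tissues, had few peaks of either list. An ACTL6A peak was at 17 of 381 (4.46%, against 38.4% of all genes) and a BRG1 peak at 10 (2.62%, against 63.5%). They were the only one of the 17 lists with more ACTL6A than BRG1 genes, and 14 had ACTL6A alone (3.67%, against 1.66%). The peaks of these 14 had 3 to 6 fragments. OR10S1 had the best ACTL6A rank, 52.9% with 5 fragments, and OR1F1 the best BRG1 rank, 27.7% with 19.

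By chromosome, the genes with a high BRG1 and no ACTL6A peak made up the largest share on chromosome 17, with 60 of 1158 genes (5.18%), followed by chromosome 13 (4.69%), 16 (4.51%) and 22 (4.15%). On chromosome X they were 8 of 853 genes (0.938%), and over all genes they were 2.72%. Genes with BRG1 alone at any rank also varied, against 26.7% of all genes. They made up 30.8% of chromosome 17, 30.6% of 13, 36.9% of 16, 34.8% of 22 and 21.1% of X. Genes in both lists made up 21.5% of chromosome X, against 36.8% of all genes.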

How the data were processed

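The authors sequenced paired-end CUT&Tag libraries of SNU638 cells, filtered reads with fastp 0.23.0, used BWA for mapping to hg38, and took MACS2 peaks with a q-value under 0.05; per the labels FastQC, deepTools and HOMER 4.11 were also used. The control given to the caller is not given in the sources used here. Each deposited list holds a score, a fold enrichment (a ratio to the expected signal), the −log10 p and the −log10 q of each peak, and no read totals; the study's methods list more reads for BRG1 than for ACTL6A, and the lists were not corrected for this. Peaks overlapping IgG 2 by at least 1 bp were left out, and the rest were ranked by −log10 q, ties taking the mean rank. A gene's best peak lay within 1000 bp of any protein-coding TSS of GENCODE release 44 on GRCh38. High was the first 10% and low the last 50% of a list. Fragment numbers are the whole numbers that give the deposited fold and p-value, within 0.002 or a share of 0.0001 of the −log10 p.

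No test was made, since each antibody had 1 library. Genes were named by rank: the 10 best of each high and absent class, the 5 with the largest gap of each high and low class, the 5 best in both and, for each gene list, the best in either library and up to 4 members of the classes. Some genes that the rule names are not reported here. The members and lists were chosen with earlier results of these data known. The routines were tested on simulated intervals. Python 3.11.15, NumPy 2.4.6, pandas 2.3.3, SciPy 1.17.1, pysam 0.24.0 and matplotlib 3.10.9 were used. The closing section gives the alternatives.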

Additional observations from a re-analysis of the deposited data

How the results depend on the processing

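Of 65 values under alternatives for the 7 counts of genes, 42 stayed within 1.5 times the reported count and 23 did not. When only peaks with −log10 q from 5 upwards were kept, 4597 genes were in both lists, 53 had ACTL6A alone, 0 were high in ACTL6A and absent in BRG1, 8 high in ACTL6A and low in BRG1, 350 high in BRG1 and absent in ACTL6A and 294 high in BRG1 and low in ACTL6A. With the highest 20000 peaks of each list, 726 genes had ACTL6A alone, and the 4 classes, in the same order, held 5, 92, 143 and 61 genes. With the highest 5% as high and the last 25% as low they held 0, 0, 181 and 13 genes. With ranks among TSS genes alone, the first 3 classes held 0, 22 and 85 genes. A TSS distance of 250 bp gave 4 genes high in ACTL6A and absent in BRG1, and 3 kb gave 4, with 2 high in ACTL6A and low in BRG1. With 1 TSS per gene 0 genes were high in ACTL6A and low in BRG1. With no BRG1 peak within 10 kb, an alternative chosen after seeing the data, 186 genes had ACTL6A alone. Keeping all peaks, leaving out peaks of either IgG list and ranking by fold enrichment moved no count past 1.5 times, but by fold enrichment 355 of the 536 genes high in BRG1 and absent in ACTL6A stayed in that class. The cause of these changes was not tested beyond what the alternatives remove. No paired analysis was possible because ACTL6A and BRG1 have a single library each. The lists limit what absence means. The fewest fragments at a called TSS peak was 3, but this is not a limit that holds at every promoter. In ACTL6A, PIK3CB had a −log10 q of 1.33 with 3 fragments where 0.239 were expected, and COX6B1 had 1.63 with 7 fragments. Promoters with more than 3 ACTL6A fragments can therefore also count as absent where the expected signal is higher.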
